A study of Mus musculus with 4 samples.

Results

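Ubiquitin-specific proteases (USPs) are the largest family of deubiquitylases, the enzymes that cut ubiquitin from proteins or trim ubiquitin chains. Most are cysteine proteases that share a catalytic domain and differ in the domains around it, which direct them to chromatin, endosomes, mitochondria, the proteasome or particular substrates. Liver is mostly hepatocytes, whose RNA dominates a whole-tissue library, and *Usp21*, the gene targeted here, encodes a USP that can take ubiquitin from histone H2A.

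Members of the family were taken as all genes of the transcript abundance table whose symbol begins with Usp and a digit, without pseudogenes and without *Usp9y*, which gave 55 of 35739 genes. The rule works on symbols alone, so it also takes in *Usp6nl*, which encodes a GTPase-activating protein for Rab proteins and not a protease. The study deleted *Usp21* in mice and measured liver RNA in WT animals, replicates 2 and 3, and in *Usp21* KO animals, replicates 1 and 3. The KO allele was constitutive, made by Cre excision of exons 3 and 4 of a floxed allele, so the allele was carried by every cell and not by liver alone. WT and KO animals were littermates from crosses of B6 mice with KO carriers of a mixed background (B6 with another laboratory strain), aged 10 to 11 weeks and kept on a normal diet. Each genotype was thus represented by 2 libraries, and p-values measure the spread between these libraries only.

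Expression is given as TPM (a transcript level corrected for length and scaled to the library), and differences as log2 fold changes on the log2(TPM + 1) scale, *Usp21* KO minus WT, with their standard error (SE). A gene was called changed at an adjusted p under 0.05 (limma, Benjamini-Hochberg over the 9581 genes that averaged 1 TPM or more). In whole tissue, fewer cells of a type and less RNA per cell cannot be told apart. Hepatocyte markers summed to between 46500 and 66900 TPM in the 4 libraries. *Alb* made up most of this and was lower in both KO libraries (43200 and 32000 against 31000 and 27500 TPM). *Hnf4a* (112 and 105 against 171 and 155 TPM), *Cyp3a11* and *Tat* were higher in both KO libraries. *Ttr* and *Apoa1* overlapped between the genotypes. Cholangiocyte markers summed to 14.6 and 15.9 TPM in WT against 37.9 and 24.5 TPM in *Usp21* KO. Most of that sum was *Spp1* (13.2 and 12.7 against 33.4 and 20.7 TPM). *Krt19* was also higher in both KO libraries, at 0.196 and 0.263 TPM against 0.998 and 1.28 TPM. *Krt7*, *Epcam* and *Sox9* overlapped between the genotypes. Stellate cell markers summed to 54.6 and 45.5 TPM in WT against 84.1 and 63.4 TPM in KO. *Dcn* made up most of this (42.6 and 34.1 against 62.8 and 48.4 TPM). *Dcn* and *Reln* were higher in both KO libraries, while *Lrat*, *Col1a1*, *Col3a1* and *Des* overlapped between the genotypes. Kupffer cell markers summed to 54.9 TPM in KO replicate 1 against 97.3 to 143 TPM in the other libraries, and neutrophil markers to 44.8 TPM in WT replicate 3 against 1.85 to 4.16 TPM. In KO replicate 1, *Cd5l* was far lower (11.4 against 37.3 to 45.5 TPM), *Clec4f* only slightly (30.0 against 32.1 to 58.0 TPM). *Marco* was not lowest there (2.11 TPM, with 1.48 TPM in WT replicate 2). *S100a8* and *S100a9* made up most of the neutrophil sum in WT replicate 3 (29.1 and 12.7 TPM). *Retnlg* had 1.46 and 1.66 TPM in WT and 0 in both KO libraries. The part of all these markers in the values below was not tested.

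The sequences removed from *Usp21* are shown first, because they define what the KO can and cannot show. In the 13-exon reference transcript of 2278 bases on chromosome 1 (GRCm38, minus strand, GENCODE), exon 3 lies at chr1:171285542-171285601 and exon 4 at chr1:171285255-171285375, and both are coding. The line after them joins the end of exon 2 (the first 12 bases) to the start of exon 5, with the first in-frame stop codon of the joined sequence in capitals.
Usp21 exon 3: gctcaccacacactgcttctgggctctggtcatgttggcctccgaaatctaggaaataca
Usp21 exon 4: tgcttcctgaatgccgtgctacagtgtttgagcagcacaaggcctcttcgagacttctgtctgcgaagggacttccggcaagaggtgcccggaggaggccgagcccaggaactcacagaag
Usp21 exon 2 joined to exon 5: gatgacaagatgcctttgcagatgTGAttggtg
The deleted exons hold 60 and 121 bases, together 181 bases or 7.95% of the transcript, and the stop begins at base 13 of exon 5. Of 12 annotated *Usp21* transcripts, 8 overlap exon 3 or 4. A gene-level value sums over all transcripts and most of the sequence is outside the deletion, so *Usp21* TPM need not be 0 in KO liver.

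*Usp21* was lower in *Usp21* KO liver but was not absent. It stood at 4.07 and 6.29 TPM in the WT livers against 1.64 and 2.93 TPM in the KO livers. The KO values lay under both WT values. The KO mean was 2.29 ± 0.917 TPM against 5.18 ± 1.57 TPM in WT (SD, n = 2 each), a ratio of 0.441. The log2 fold change was -0.92 (SE 0.33), with adjusted p = 0.464 (limma). The direction goes with the labels, although the difference did not pass the adjusted test. Without any 1 library it lay between -1.20 and -0.63. The nearest genes on either side were also examined. *Ppox*, which encodes an enzyme of haem synthesis, had 3.79 and 5.58 TPM in the WT livers against 4.53 and 2.08 TPM in the KO livers, so the genotypes overlapped. *Ufc1*, the E2 enzyme of the ubiquitin-like modifier UFM1, had 58.3 and 61.6 TPM in the WT livers against 64.6 and 61.1 TPM in the KO livers, also with overlap.

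Liver expressed a broad set of USPs. Of the 55 members, 44 were above 0 in at least 1 library and 42 in every library, and 34 reached a mean of at least 1 TPM. Members with a mean of at least 10 TPM numbered 10, and 3 reached 20 TPM. Another 10 members were above 0 with a mean under 1 TPM. The remaining 11 members were listed at 0 in all 4 libraries, namely *Usp13*, *Usp26*, *Usp29*, *Usp43*, *Usp44*, *Usp51* and the 5 copies of *Usp17l* (*Usp17la* to *Usp17le*). These *Usp17l* copies share between 27.6% and 65.6% of their 31-base words with other family members, so reads from them can be hard to assign.

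**Figure D1:**
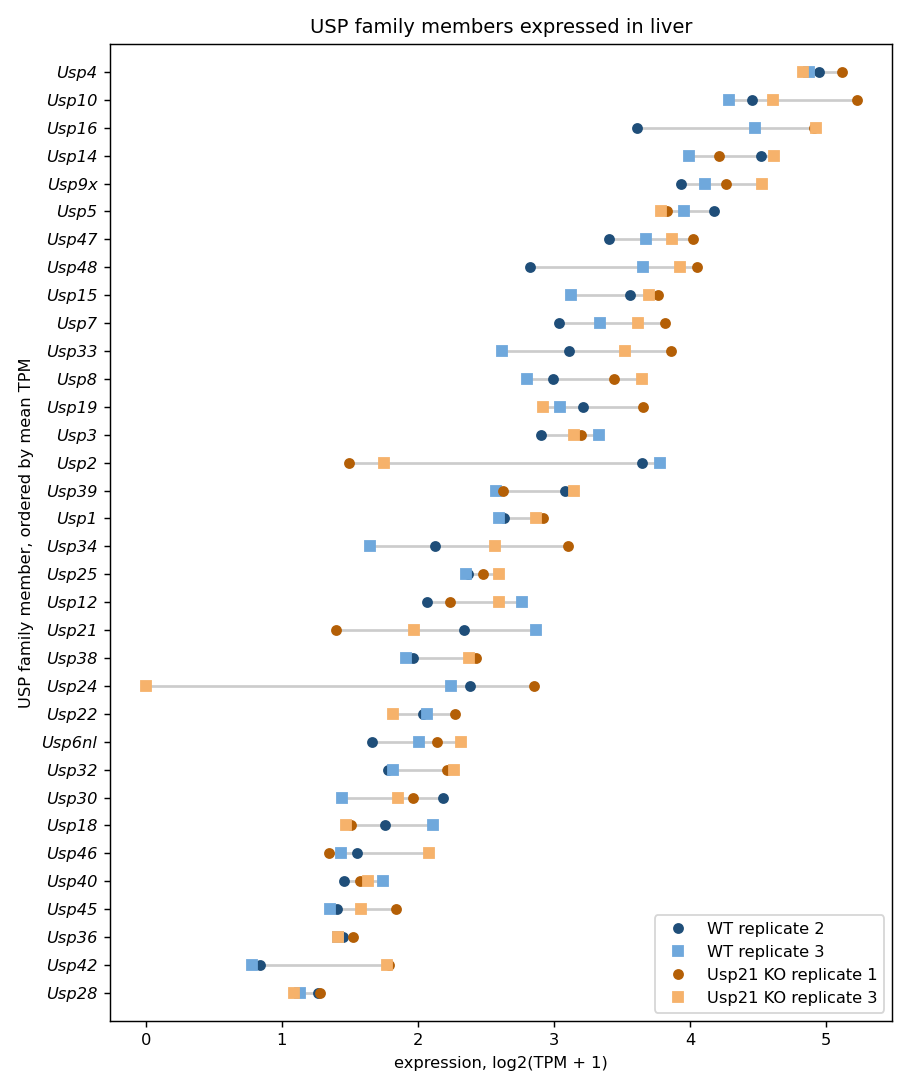
Expression of the 34 USP family members with a mean of at least 1 TPM, as log2(TPM + 1), 1 point per library (blue: WT, orange: Usp21 KO; circle and square: the 2 libraries of a genotype) and grey lines from the lowest to the highest library. Members are ordered by mean TPM, from *Usp4* at 29.8 TPM to *Usp28* at 1.29 TPM, and the range of each overlaps that of its neighbour.

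*Usp4* had the highest mean level, 29.8 TPM, with a range of 27.4 to 33.6 TPM. It encodes a USP with an N-terminal DUSP domain, shared with its close relative *Usp15*, which had 7.71 to 12.6 TPM. *Usp10*, whose protein binds G3BP and acts on p53, followed with 18.5 to 36.4 TPM. *Usp16*, an H2A deubiquitylase, ranged from 11.2 to 29.3 TPM, and *Usp14*, which works on the proteasome, from 14.9 to 23.5 TPM. The next were *Usp9x*, a large X-linked USP, at 14.3 to 22.1 TPM, and *Usp5*, which takes apart free ubiquitin chains, at 12.8 to 17.1 TPM. *Usp47* (9.6 to 15.2 TPM) and *Usp48* (6.08 to 15.6 TPM) completed the 8 highest. In all 33 pairs of neighbours in this order, the ranges over the 4 libraries overlapped, so the order is not resolved from one member to the next.

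No member passed the adjusted test in either direction, against 8 of all 9581 tested genes (0.0835%), so no paralog was called higher in *Usp21* KO liver. At an unadjusted p under 0.05, 5 of 34 tested members were higher in KO (8.45% of all tested genes) and 2 were lower (2.04% of all tested genes). The KO values both exceeded the WT values for 17 members (34.4% of all tested genes) and were both lower for 4 members (10.9%), and the genotypes overlapped for the other 13. *Usp42*, counted in the 5 and in the 17, had a WT mean of 0.751 TPM and was tested only because of its KO libraries. Left out in turn, WT replicate 2, WT replicate 3, KO replicate 1 and KO replicate 3 took the 5 higher members to 3, 3, 2 and 4 (3.89%, 4.85%, 4.74% and 10.4% of all tested genes). With 2 libraries per genotype, an exact permutation test of 1 gene cannot go below p = 0.333. Part of the direction was shared by genes at large. The median log2 fold change was 0.20 over the members and 0.15 over all tested genes. After each library was scaled to an equal upper quartile, the medians were 0.10 and 0.04, members above 0 went from 27 (66.7% of all tested genes) to 20 (54% of all tested genes). Members with both KO libraries higher then numbered 14 (24.6% of all tested genes) and lower 5 (18.6%). With libraries scaled to an equal median the medians were 0.03 for members and -0.05 for all tested genes, and 17 members were above 0 and 17 below.

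**Figure D2:**
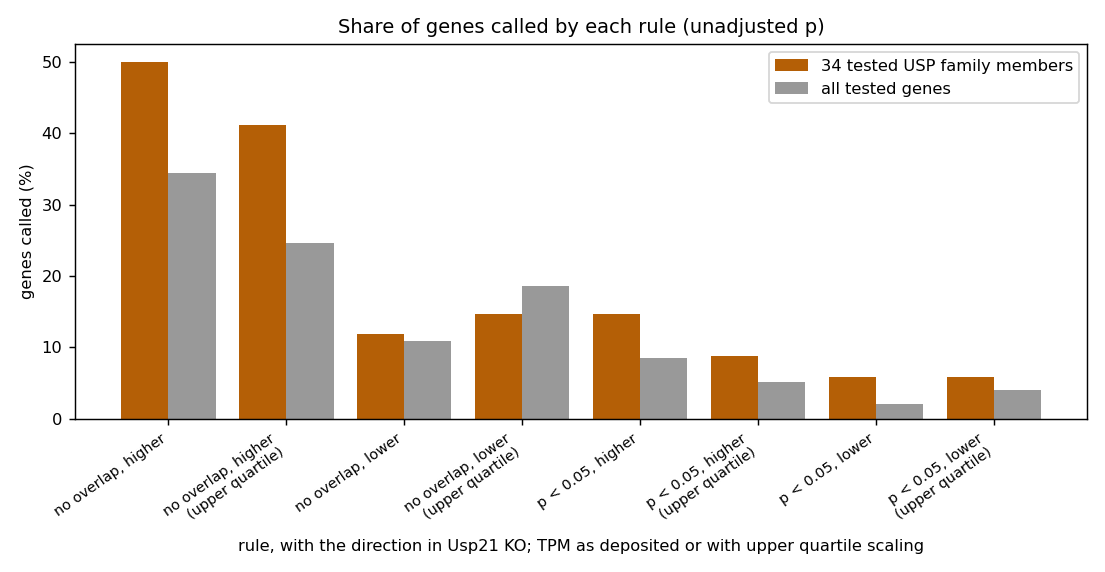
Percent of the 34 tested USP family members (orange) and of all 9581 tested genes (grey) called by each rule, for TPM as deposited and after upper quartile scaling. The p-values are unadjusted limma values, bars start at 0, and under both scalings the members' share with both KO libraries higher is above that of all tested genes.

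The summed level of the family was 250 and 256 TPM in the WT livers against 322 and 295 TPM in the KO livers. Each KO sum exceeded each WT sum. After upper quartile scaling the sums were 262 and 268 in WT and 295 and 293 in KO, in the same order, and the difference of means went from 55.7 to 29.5 TPM. The 5 most abundant members held between 38.9% and 42.6% of the sum in each library. The median member differed between the genotypes by 0.382 (absolute log2 fold change) and between the libraries of a genotype by 0.208 in WT and 0.197 in KO. For all tested genes these medians were 0.263, 0.241 and 0.285.

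**Figure D3:**
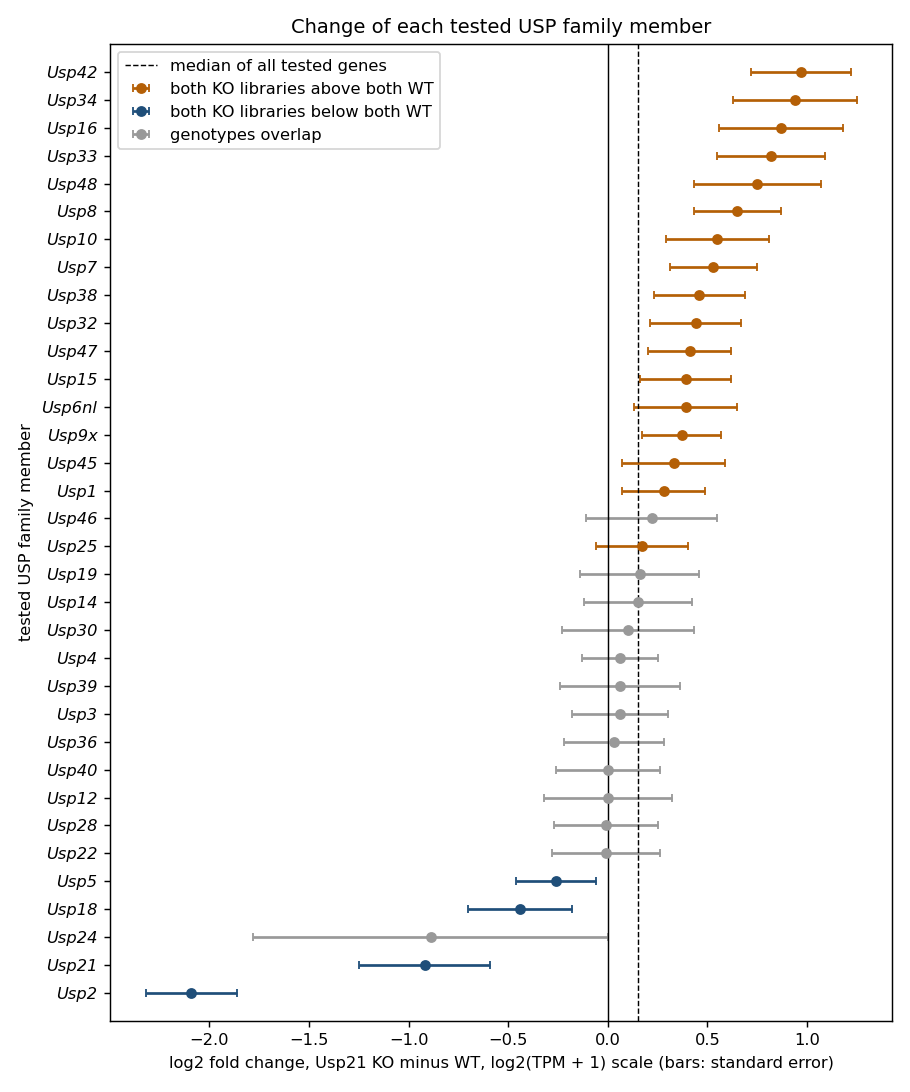
Log2 fold change (Usp21 KO minus WT, log2(TPM + 1) scale) of the 34 tested members with its standard error, limma, 2 libraries per genotype. Orange marks the 17 members whose KO values both exceed the WT values, blue the 4 whose KO values are both lower, grey those that overlap, and the dashed line the median of all tested genes (0.15). *Usp2* stands lowest at -2.09 and *Usp42*, which was tested only because of its KO libraries, highest at 0.97.

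*Usp2* differed most between the genotypes. It is a relative of *Usp21* by catalytic domain, and its mRNA is known to cycle with the circadian clock in many tissues. Its level was 11.5 and 12.7 TPM in the WT livers against 1.81 and 2.37 TPM in the KO livers. The genotypes were far apart compared with the spread inside each, with means of 12.1 ± 0.873 TPM and 2.09 ± 0.395 TPM (SD, n = 2 each) and a ratio of 0.173. The log2 fold change was -2.09 (SE 0.23) and adjusted p = 0.101 (limma), so it missed the threshold. On the log2(TPM + 1) scale, 1.1% of all tested genes were at least 2-fold lower and 2.59% at least 2-fold higher. With a pseudocount of 0.1, 5 members were at least 2-fold apart (share of all genes not computed). *Usp2* was the only member at least 2-fold apart on the log2(TPM + 1) scale. Without any 1 library it lay between -2.22 and -1.96, and over all TPM alternatives its adjusted p ran from 0.0987 to 0.657.

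Of the other relatives of *Usp21* by catalytic domain, *Usp8* was expressed above the filter and *Usp50* was not. *Usp8*, which acts on endosomes to sort receptors, had 6.95 and 5.97 TPM in the WT livers against 9.87 and 11.5 TPM in the KO livers. The KO values were both higher, with a log2 fold change of 0.65 (SE 0.22) and adjusted p = 0.464 (limma). *Usp50* was low, at 0.207 and 0.702 TPM in the WT livers against 0.247 and 0.284 TPM in the KO livers, with overlap. *Usp8* and *Usp50* lie on opposite strands of chromosome 2 and overlap, and the strand setting of the quantification is not known.

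The promoters of *Usp2* and *Usp16* are given because their members are, respectively, the lowest in KO and the only one with a promoter entry among the members higher at an unadjusted p under 0.05 whose 250 bases before the start hold an E-box, the element bound by clock and other bHLH factors. The sequences are from RefSeq (GRCm38.p6), on the plus strand, at chr9:44084670-44084919 and chr16:87454735-87454984, and capitals mark GC boxes (GGGCGG or its reverse CCGCCC) in *Usp2* and the E-box (CACGTG) in *Usp16*.
Usp2 promoter: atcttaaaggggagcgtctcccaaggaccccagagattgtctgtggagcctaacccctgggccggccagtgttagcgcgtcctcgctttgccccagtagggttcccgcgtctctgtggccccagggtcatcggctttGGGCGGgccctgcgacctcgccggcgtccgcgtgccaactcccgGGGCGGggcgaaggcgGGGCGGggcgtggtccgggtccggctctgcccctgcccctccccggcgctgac
Usp16 promoter: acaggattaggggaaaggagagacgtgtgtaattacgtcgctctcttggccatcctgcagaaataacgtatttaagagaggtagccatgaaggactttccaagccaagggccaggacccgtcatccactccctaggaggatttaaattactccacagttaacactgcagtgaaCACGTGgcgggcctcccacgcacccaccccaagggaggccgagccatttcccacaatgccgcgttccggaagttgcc
The *Usp2* window precedes an internal start, since the annotation also has transcripts that begin at base 44067021. Likewise, the annotated *Usp16* gene begins at base 87454703, so its window lies inside the gene, and distances are counted from the RefSeq start. The GC boxes of *Usp2* lie 113, 69 and 53 bases before the start, and the E-box of *Usp16* 77 bases before. Both strands were searched. Of 32851 promoters, 6.02% hold CACGTG, 0.819% the D-box TTATGTAA, 1.55% the element TGACGTCA, 33.8% CCAAT and 32.7% GGGCGG. Among 42 members with a promoter, 4 hold an E-box (*Usp4*, *Usp6nl*, *Usp16* and *Usp31*), 0 a D-box, 0 TGACGTCA, 12 CCAAT and 26 a GC box. A match says only that the letters are present.

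Clock genes were set beside *Usp2*. Of 11 tested, 6 were lower and 2 higher in *Usp21* KO at an unadjusted p under 0.05 (2.04% and 8.45% of all tested genes). *Dbp*, a PAR bZIP factor, had 56.8 and 41.3 TPM in the WT livers against 4.73 and 4.97 TPM in the KO livers, a log2 fold change of -3.08 (SE 0.23) and an adjusted p of 0.0193 (limma). It lost that call when any 1 library was left out, without the filter on low levels and without moderation of variances, while the log2 fold change stayed between -3.31 and -2.85. On the count table its log2 fold change was 1.52 with limma. *Ciart*, a clock repressor, had 5.7 and 5.61 TPM against 0.301 and 0.194 TPM, with adjusted p = 0.089 (limma). *Tef*, *Hlf*, *Per1* and *Cry2* were lower in both KO libraries, with log2 fold changes of -1.06, -0.62, -0.86 and -0.84. *Clock* (1.26) and *Nfil3* (1.69) were higher in both. *Nr1d2* was lower in both KO libraries (-0.25, unadjusted p = 0.227, limma), while *Nr1d1* and *Cry1* overlapped between the genotypes. The hour at which each liver was taken is not given in the sources used here, so a difference in hour and the genotype cannot be told apart for *Usp2*.

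**Figure D4:**
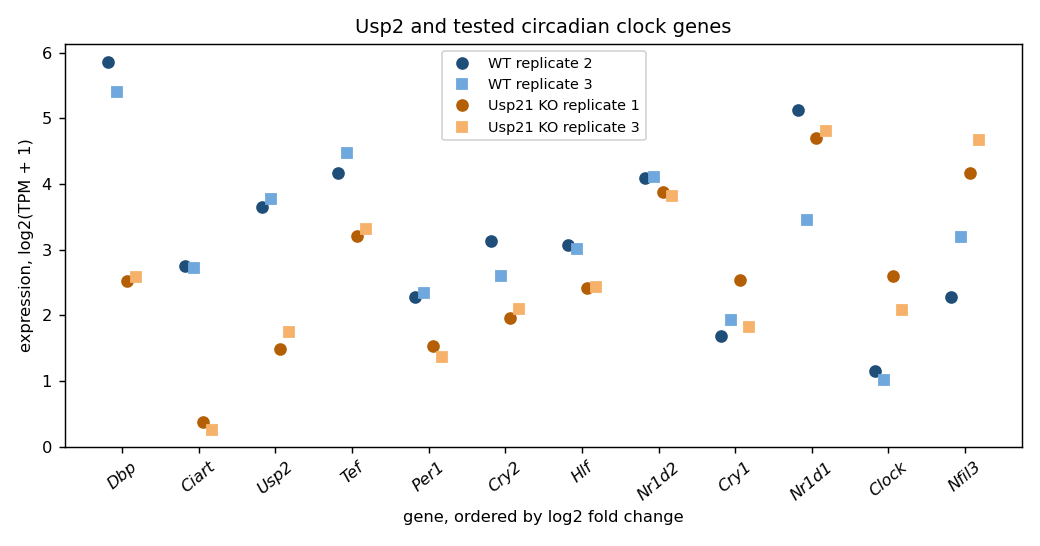
Expression of *Usp2* and the 11 tested clock genes as log2(TPM + 1), 1 point per library (blue: WT, orange: Usp21 KO). Genes run from the lowest to the highest log2 fold change, and *Usp2* comes after *Dbp* and *Ciart*.

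*Usp42* was among the 5 members higher at an unadjusted p under 0.05. *Usp42*, a relative of *Usp36* that acts on p53, had 0.787 and 0.715 TPM in the WT livers against 2.46 and 2.41 TPM in the KO livers. The libraries within each genotype were close, and the KO mean was 3.24 times the WT mean. Its log2 fold change was 0.97 (SE 0.25) and adjusted p = 0.464 (limma), and it depended on the pseudocount, with 1.58 at a pseudocount of 0.1 and 0.37 at 5. Because its WT level was under 1 TPM, it passed the filter on low levels through its KO libraries. *Usp36* itself, a nucleolar USP, had 1.73 and 1.67 TPM in the WT livers against 1.87 and 1.66 TPM in the KO livers, with overlap.

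*Usp34*, a very large USP that acts on axin in Wnt signalling, was measured at 3.37 and 2.14 TPM in the WT livers against 7.57 and 4.92 TPM in the KO livers. Levels were higher in both KO livers, with a ratio of means of 2.27, a log2 fold change of 0.94 (SE 0.31) and adjusted p = 0.464 (limma). *Usp34* is the best covered member in the separate table of gene counts, where reads recovered from the deposited values numbered 39 and 43 in WT and 94 and 62 in KO. Of its 31-base words, 13.1% also occur outside the family, and it overlaps *Ahsa2* on the opposite strand. Whether these reads came from *Usp34* or *Ahsa2* was not tested, and the count table lists many abundant genes at 0.

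*Usp16*, which removes ubiquitin from H2A in mitosis and at developmental genes, had 11.2 and 21.3 TPM in the WT livers against 29.1 and 29.3 TPM in the KO livers. The KO libraries were nearly equal and higher than the WT libraries, which were apart from each other. The log2 fold change was 0.87 (SE 0.31) and adjusted p = 0.464 (limma), and *Usp16* overlaps *Cct8* on the opposite strand. Leaving out WT replicate 2 gave 0.44, and leaving out WT replicate 3 gave 1.31. In the count table, with only 2 and 1 reads in WT and 2 and 1 in KO, its log2 fold change was -0.09 with limma and -0.13 with DESeq2.

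*Usp33*, a DUSP-domain USP related to *Usp20*, had 7.64 and 5.14 TPM in the WT livers against 13.5 and 10.5 TPM in the KO livers. Both KO libraries were higher, with a log2 fold change of 0.82 (SE 0.27) and adjusted p = 0.464 (limma). Of its 31-base words, 23.6% also occur outside the family. *Usp20* was under the filter at 0.86 and 0.984 TPM in the WT livers against 1.23 and 0.29 TPM in the KO livers, with overlap.

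**Figure D5:**
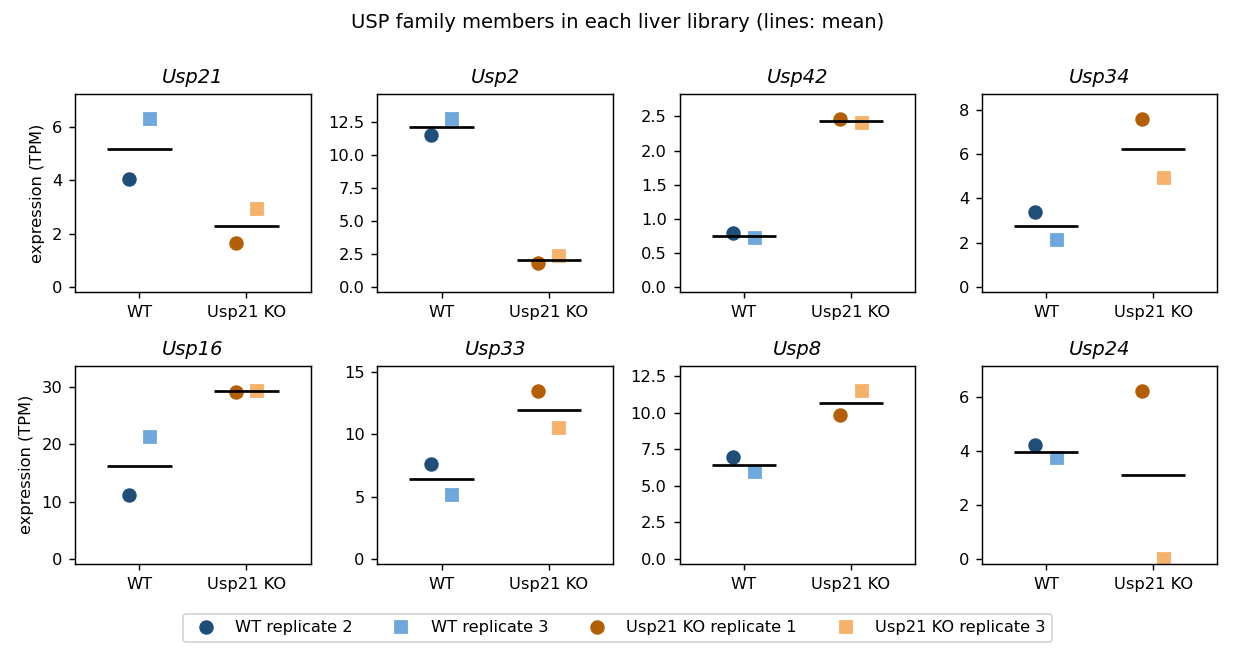
TPM of 8 members in each library (blue: WT, orange: Usp21 KO), with a black line at the mean of each genotype and each axis from 0. The KO values lie below the WT values for *Usp21* and *Usp2* and above them for *Usp42*, *Usp34*, *Usp16*, *Usp33* and *Usp8*. *Usp24* overlaps, with 1 KO library listed at 0.

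Of the other H2A and H2B deubiquitylases, none had an unadjusted p under 0.05. *Usp7*, which also acts on MDM2 and p53, had 7.21 and 9.12 TPM in the WT livers against 13.1 and 11.3 TPM in the KO livers. The KO values were both higher, with a log2 fold change of 0.53 (SE 0.22) and adjusted p = 0.479 (limma). *Usp3* (6.48 and 9.06 TPM in WT, 8.16 and 7.88 TPM in KO) and *Usp22*, the USP of the SAGA coactivator (3.1 and 3.18 TPM in WT, 3.83 and 2.52 TPM in KO), overlapped between the genotypes. The related *Usp27x* (0.0606 to 0.267 TPM) and *Usp49* (0.165 to 0.205 TPM) were low, and *Usp44* and *Usp51* were listed at 0.

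*Usp48* had 6.08 and 11.6 TPM in the WT livers against 15.6 and 14.2 TPM in the KO livers. Levels were higher in both KO livers, with a log2 fold change of 0.75 (SE 0.32) and adjusted p = 0.479 (limma). Leaving out WT replicate 2 gave 0.33 for *Usp48*, and leaving out WT replicate 3 gave 1.16. The other 10 members with both KO libraries higher had log2 fold changes from 0.17 (*Usp25*) to 0.55 (*Usp10*), and all of them had an unadjusted p over 0.05. *Usp10* had 20.9 and 18.5 TPM in the WT livers against 36.4 and 23.4 TPM in the KO livers. The log2 fold change of *Usp10* was 0.24 without KO replicate 1 and 0.85 without KO replicate 3. *Usp9x* had 14.3 and 16.3 TPM in the WT livers against 18.2 and 22.1 TPM in the KO livers. For both of these genes the lower KO library stood just above the higher WT library. *Usp47* had 9.6 and 11.8 TPM in the WT livers against 15.2 and 13.6 TPM in the KO livers. *Usp15* had 10.8 and 7.71 TPM in the WT livers against 12.6 and 12.0 TPM in the KO livers. The WT libraries of *Usp15* differed by more than the KO libraries. *Usp38* had 2.91 and 2.77 TPM in the WT livers against 4.37 and 4.19 TPM in the KO livers, and *Usp32*, a DUSP-domain USP, 2.44 and 2.52 TPM against 3.63 and 3.81 TPM. In both genes the libraries of a genotype lay close together, with ratios of means of 1.51 and 1.5 and adjusted p = 0.513 and adjusted p = 0.522 (limma). *Usp45*, the relative of *Usp16*, had 1.65 and 1.56 TPM against 2.57 and 1.99 TPM, *Usp25* 4.17 and 4.12 TPM against 4.57 and 5.05 TPM, and *Usp6nl* 2.16 and 3.03 TPM against 3.41 and 3.97 TPM. *Usp1*, which with Wdr48 acts on Fanconi anaemia proteins, had 5.21 and 5.06 TPM in the WT livers against 6.58 and 6.29 TPM in the KO livers, and 31.6% of its 31-base words also occur outside the family (21.3% for *Usp38*).

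Members lower in both KO libraries beside *Usp2* and *Usp21* were *Usp5* and *Usp18*. *Usp5* had 17.1 and 14.5 TPM in the WT livers against 13.2 and 12.8 TPM in the KO livers, a log2 fold change of -0.26 (SE 0.20) and adjusted p = 0.63 (limma), which was -0.15 without WT replicate 2. *Usp18*, the protease that removes the ubiquitin-like ISG15 and is induced by interferon, had 2.38 and 3.31 TPM in the WT livers against 1.84 and 1.77 TPM in the KO livers. Its log2 fold change was -0.44 (SE 0.26) and adjusted p = 0.555 (limma), and -0.27 without WT replicate 3. Of 12 tested interferon-induced genes, 0 were higher and 0 lower at an unadjusted p under 0.05 (limma), with a median log2 fold change of -0.12.

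*Usp24*, a large USP, shows how a single library can set a value. It had 4.22 and 3.74 TPM in WT, 6.24 TPM in KO replicate 1, and was listed at 0 in KO replicate 3. The genotypes overlapped, and the log2 fold change was -0.89 (SE 0.89, adjusted p = 0.713, limma), but 0.54 without KO replicate 3. The count table held 6 and 14 reads in WT and 7 and 2 in KO, so it did not list the gene at 0 in KO replicate 3. Because that table lists many abundant genes at 0, these reads do not settle the level of *Usp24* in that library.

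Members that overlapped between the genotypes included *Usp4* (29.8 and 28.3 TPM in WT, 33.6 and 27.4 TPM in KO), the highest expressed. *Usp14* had 22.0 and 14.9 TPM in the WT livers against 17.5 and 23.5 TPM in the KO livers, and 25.8% of its 31-base words occur outside the family. *Usp30*, which sits on mitochondria and opposes mitophagy, had 3.54 and 1.72 TPM in the WT livers against 2.91 and 2.61 TPM in the KO livers. In each of these genes the libraries of at least 1 genotype differed by more than the genotype means. *Usp19*, which is anchored in the endoplasmic reticulum, had 8.26 and 7.26 TPM in the WT livers against 11.6 and 6.57 TPM in the KO livers. *Usp39*, a splicing factor without protease activity, had 7.47 and 4.94 TPM against 5.17 and 7.85 TPM, and its KO replicate 3 was the highest library while its KO replicate 1 stood next to the lowest. Among the members that bind Wdr48, *Usp12* had 3.2 and 5.79 TPM against 3.71 and 5.06 TPM, and *Usp46* 1.93 and 1.71 TPM against 1.55 and 3.23 TPM. Neither was separated by genotype. *Usp40* stayed between 1.75 and 2.35 TPM and *Usp28*, the relative of *Usp25*, between 1.13 and 1.43 TPM.

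Without the filter, both KO values exceeded the WT values for 23 of 44 members (28.9% of all 15061 genes fitted). They were both lower for 5 members (9.33%). Below the filter, 3 members had the largest ratios of KO to WT, at low levels. *Usp37* had 0.164 and 0.159 TPM in the WT livers against 0.607 and 0.639 TPM in the KO livers, *Usp54* 0.111 and 0.144 TPM against 0.451 and 0.429 TPM, and *Usp11* 0.168 and 0.224 TPM against 0.521 and 0.294 TPM. In the fit without a filter, *Usp37* had adjusted p = 0.607 and *Usp54* adjusted p = 0.616 (limma). These ratios (3.85, 3.46 and 2.08) rest on levels under 1 TPM, where TPM does not record the depth behind them. *Usp53* (0.654 and 0.575 TPM against 1.11 and 0.748 TPM) and *Usp31* (0.226 and 0.23 TPM against 0.463 and 0.352 TPM) were also higher in both KO libraries. So was *Usp49*, by little (0.165 and 0.182 TPM against 0.205 and 0.183 TPM). *Usp35* was at 0.2 and 0.134 TPM in WT and listed at 0 in both KO libraries, and *Usp50* overlapped between the genotypes.

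Related deubiquitylases and USP partners were counted at an unadjusted p under 0.05, at which 8.45% of all tested genes were higher, and none passed the adjusted test. Of 13 tested USP partners, 1 was higher: *Eny2*, a subunit of the SAGA module that works with *Usp22*, with 73.6 and 82.9 TPM in the WT livers against 119 and 111 TPM in the KO livers (log2 fold change 0.55, SE 0.17, adjusted p = 0.464, limma). Of 12 tested OTU-family deubiquitylases, *Yod1* was higher, at 1.44 and 1.58 TPM against 3.53 and 2.77 TPM (adjusted p = 0.464, limma). Of 3 Josephin-family genes, *Josd2* was higher, at 7.65 and 7.47 TPM against 13.9 and 11.6 TPM (adjusted p = 0.464, limma). The 3 UCH, 8 JAMM, 3 MINDY and ZUP1 and 3 USP-type genes without a Usp symbol gave 0 in either direction.

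Of 20 tested H2A and H2B ubiquitin ligase genes, 2 were higher and 0 lower at an unadjusted p under 0.05, against 8.45% and 2.04% of all tested genes. *Rnf20*, an H2B ligase, had 2.69 and 4.04 TPM in the WT livers against 6.17 and 6.9 TPM in the KO livers, and *Wac*, its partner, 11.6 and 12.1 TPM against 17.3 and 16.8 TPM, with adjusted p = 0.464 and adjusted p = 0.468 (limma).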

How the data were processed

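Liver RNA of 4 mice (2 WT, 2 *Usp21* KO) was sequenced, and samples were grouped by their labels and columns by their names. Salmon, Partek, HTSeq, edgeR, deepTools and mm10 are named in the submitters' processing notes; versions, annotation and strand setting are not given in the sources used here. The authors deposited TPM per gene (2 tables were read, with 0 columns unused). A second table, deposited by the authors as TMM-normalized CPM, is a signal scaled from gene counts: 100% of its values came out as whole reads (within 0.02 reads), 102898 to 148164 per library, but it lists many abundant genes at 0, so it served only for alternatives. The authors' log2 tables were not used. TPM keeps no depth, so no counting interval was computed. Genes that averaged 1 TPM or more were tested on log2(TPM + 1) with limma 3.58.1 in R 4.3.3 (two-sided, trended variances, no covariate), and the code was tested on simulated data. Alternatives were pseudocounts of 0.1 and 5, filters, upper quartile and median scaling, no moderation, each library left out, and, on the CPM table, limma, edgeR 4.0.16 and DESeq2 1.42.0. Named members were *Usp21* and its relatives, the 8 highest, those with an unadjusted p under 0.05 or a change of at least 2-fold, the 4 highest and 4 lowest log2 fold changes, histone deubiquitylases and *Usp18*, with clock genes beside *Usp2*. Values of the other members were added after they were seen. A list of related genes is not reported here. The members and lists were chosen with earlier results of these data known. Coordinates are from GENCODE M21 (GRCm38), and promoters, 250 bases before the start, from RefSeq.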

Additional observations from a re-analysis of the deposited data

How the results depend on the processing

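With 2 libraries per genotype, none of these settings gave any member an adjusted p under 0.05 (0 in each). The median log2 fold change of the members was 0.37 for a mean of at least 5 TPM, 0.10 with upper quartile scaling, 0.03 with an equal median, and -0.01, -0.10 and -0.12 on the CPM table with limma, edgeR and DESeq2, where 10 members could be fitted. Members with an unadjusted p under 0.05 in either direction numbered 4 of 17 (mean of at least 5 TPM), 4 of 34 (equal median) and 1, 1 and 0 of 10 (CPM table). The share of all genes in either direction was not computed under these settings, so these counts cannot be set against genes at large. Members higher in KO at that p numbered 3 of 17 (at least 5 TPM, 8.73% of all genes fitted) and 3 of 34 (upper quartile, 5.14%). They numbered 2 of 34 with an equal median (3.61%) and 1, 1 and 0 of 10 on the CPM table (2.33%, 1.98% and 0.175%). Those at least 2-fold apart numbered 5 (pseudocount 0.1), 2 (upper quartile), 3 (equal median) and 5, 6 and 6 (CPM table). The share of all genes at least 2-fold apart was not computed under these settings, so these counts cannot be set against genes at large. Members with both KO libraries higher numbered 10 of 17 (at least 5 TPM, 32.8% of all genes fitted) and 2 of 10 on the CPM table (12.6%), and lower 2 of 17 (12.0%), 8 of 34 (equal median, 25.8%) and 0 of 10 (8.98%). Among related genes, 2 kept an unadjusted p under 0.05 with an equal median and 0 on the CPM table. The share of all genes in either direction is likewise missing for these counts, so they cannot be set against genes at large. The summed TPM difference was 29.5 with upper quartile scaling. Without any 1 library, members at least 2-fold apart ran from 2 to 5 (without WT replicate 2). Members with KO below WT in all libraries left ran from 5 (without WT replicate 3, 22.3% of all genes, or KO replicate 3, 19.4%) to 10 (without KO replicate 1, 27.8%). Those with KO above WT ran from 20 (44.3% to 49.1%) to 23 (without KO replicate 3, 57.6%). Of 382 single-gene values 355 kept their direction and side, 21 reversed and 6 (all of *Dbp*) lost their call. The side is that of an adjusted p of 0.05. Among the genes counted only *Dbp* was under it to begin with, so only *Dbp* could lose a call. For the other genes the count mainly records direction. Reversed values were -0.06 for *Usp14*, -0.06 and -0.15 for *Usp3*, -0.05 and -0.11 for *Usp36* and -0.07 and -0.16 for *Usp4* under scaling. On the CPM table they were -0.09, -0.10 and -0.13 for *Usp16* and 1.52, 1.54 and 1.59 for *Dbp*. Without any 1 library, *Usp14* ran from -0.11 to 0.42, *Usp22* from -0.24 to 0.22, *Usp24* from -2.31 to 0.54, *Usp3* from -0.16 to 0.27, *Usp36* from -0.02 to 0.09 and *Usp4* from -0.08 to 0.21. The cause was not tested. *Usp21* could not be fitted in the CPM table, which lists it at 0. No paired analysis was possible because the groups share only replicate number 3.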

Other observations

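The count table lists reads for only 10 of the 55 members and for 8 of the 34 tested ones, while the TPM table has all 34 above 0 in at least 3 libraries. Reads recovered for *Usp14* were 9 and 11 in WT and 16 and 10 in *Usp21* KO, for *Usp30* 7 and 2 against 6 and 3, and for *Usp18* 3 and 1 against 1 and 1. On the opposite strand, *Usp14* overlaps *Thoc1*, *Usp30* overlaps *Svop* and *Alkbh2*, and *Usp18* overlaps *Gm44148*. Whether the reads came from the members or from these genes was not tested.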
